A study of Homo sapiens with 17 samples.

Results

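Genes named LINC are long intergenic noncoding RNA genes, transcripts that are spliced and often polyadenylated but have no recognised protein product. The 97 genes described here were chosen by 2 criteria: a GENCODE 29 symbol of LINC followed by digits, and a mean raw read count of 20 or more over all 17 libraries of the count table. They are 97 of 1878 LINC-named genes and of 60662 genes in the table. Of the other LINC-named genes, 898 had no read in any library and 883 had some reads below the limit.

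The data are RNA-seq read counts from Ishikawa cells, an established human endometrial adenocarcinoma line used as a model of the endometrial epithelium. All cultures were treated for 24 h. The 3 control cultures had medium alone, the 2 Nap only cultures had the vehicle part that the labels call Nap, the 3 vehicle control cultures had Nap with ethanol (70% in the labels), and the 3 P4 treated cultures had Nap with progesterone (P4). The sources used here do not define Nap, and ethanol is not named for the P4 treated cultures, so P4 and the absence of ethanol cannot be told apart in that comparison. The labels call the cultures biological replicates. Another 6 libraries are labelled PSAT1 or PSAT1 with P4, but their titles contradict their column names. They entered no test of a difference. They did count in the mean over 17 libraries that chose the members and in the scaling of the CPM values.

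LINC RNAs act in the nucleus or the cytoplasm, for example by recruiting chromatin proteins, by affecting a neighbouring gene through the act of transcription, or by binding proteins and microRNAs. Many are expressed at low levels and in a restricted set of cell types, and for most the function is unknown. Progesterone acts through its receptor, a ligand-dependent transcription factor encoded by PGR, and at high concentrations steroids can also occupy related receptors such as the glucocorticoid receptor, encoded by NR3C1. In the endometrium it ends oestrogen-driven growth of the epithelium and prepares it for implantation.

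Library totals ranged from 4999521 to 19704493 counts, the lowest being vehicle control replicate 1. Mitochondrial genome genes took 21.4 to 28.5% of the counts in the labelled cultures. Epithelial markers were present, with EPCAM between 172 and 215 CPM (read counts per library total, after the totals were scaled by the trimmed mean of M-values), and none of the 6 listed was at 0. The summed epithelial list was nonetheless lower in P4 treated cells, at 929 to 1079.1 CPM against 1171.4 to 1173.6 CPM in vehicle control, with KRT8 (log2 fold change -0.7), KRT18 (-0.34) and KRT19 (-0.35) lower, CDH1 higher (0.24), and EPCAM and MUC1 not past the test. Of 5 stromal markers, DCN and PDGFRB were at or near 0 in every culture, but COL1A2 was high and had a mean of 267 CPM in vehicle control and 84.5 CPM in P4 treated cells. The summed stromal list ranged from 285 to 305 CPM in vehicle control and from 79.9 to 134 CPM in P4 treated cells. The lists of 4 immune and 4 endothelial markers each summed to at most 1.74 CPM in any culture, and CDH5 was at 0 throughout. In such bulk samples, fewer cells of a type and less RNA per cell cannot be told apart, and the part of the marker changes in the results below was not tested. The mean PGR level was 111 ± 7.87 CPM in control cells, 57.4 ± 6.5 CPM with vehicle and 21.7 ± 5.1 CPM with P4 (SD, n = 3 each), whereas NR3C1 was higher in P4 treated cells than in vehicle control by 0.97 ± 0.1 on the log2 scale (SE, adjusted p = 8e-06).

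The members were expressed at low levels. The median member had a mean count of 58.4, and the highest, LINC00963, had 1015.8. The 5 highest members held 30.4% of all member counts. On a scale corrected for exon length (RPKM, the CPM per kilobase of exon, as the mean of the 11 labelled cultures), member levels ran from 0.0824 to 11.7 with a median of 1.77, and 63 members reached 1 RPKM. The median over protein-coding genes that met the same count minimum was 5.65 RPKM. Every member had at least 1 read in each labelled culture. By type, 72 were annotated as lincRNA, 10 as processed transcript and 5 as antisense, and most of the rest were transcribed pseudogenes.

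The members together took 0.0983% ± 0.00649 of the counts in control cells, 0.104% ± 0.00354 in Nap only cells (n = 2), 0.103% ± 0.00709 in vehicle control and 0.0862% ± 0.00878 in P4 treated cells (SD, n = 3 unless given). As a percent of counts, the cultures ranged from 0.0973 to 0.111% in vehicle control and from 0.0809 to 0.0963% in P4 treated cells, without overlap. On the CPM scale the summed level ranged from 961 to 1061.1 in vehicle control and from 869 to 998 in P4 treated cells. There the groups overlapped, so their separation depended on the scaling.

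The 6 members with the highest RPKM were LINC01578 (11.7), LINC01518 (11.4), LINC00960 (10.9), LINC02595 (10.6), LINC00472 (10.1) and LINC00641 (8.77). These levels lie close together, and with the length of the longest transcript in place of all exons LINC01578 came to 23.5 and LINC00960 to 16.3 RPKM. LINC01578 is now named CHASERR, an RNA transcribed beside CHD2 that is known to hold down CHD2 expression. Its level hardly varied: the 3 vehicle control cultures had 68.7, 64.2 and 60 CPM and the 3 P4 treated cultures 65.6, 68.5 and 62.6 CPM. The log2 fold change was 0.02, with a 95% interval from -0.13 to 0.17. CHD2, which encodes a chromatin remodeller, was at 167 ± 5.23 CPM in vehicle control and 215 ± 22.2 CPM in P4 treated cells (log2 fold change 0.35 ± 0.08 SE, adjusted p = 0.0022). LINC00960 lies within ZNF717 and shares exon bases with it. Its P4 treated cultures (30.4 to 36.4 CPM) overlapped the vehicle controls (31.4 to 35.1 CPM).

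The main comparison set P4 treated cells against the vehicle control, which the study used to find P4-responsive transcripts. All 97 members were tested among 16540 genes with edgeR's quasi-likelihood test and Benjamini-Hochberg adjustment over all genes. At an adjusted p under 0.05, 48 members passed (49.5%), against 53.0% of all genes tested and 56.1% of genes that met the same count minimum. The share that changed was thus near the background. Of the 48, 13 rose and 35 fell, where 26.6% of all genes rose and 26.5% fell. A change beyond 1 log2 unit was seen in 28 members, 9 higher and 19 lower, against 12.4% of all genes. In 56 members the P4 treated and vehicle cultures did not overlap in CPM (60.3% of all genes), and these included all 48 that passed. The median log2 fold change was -0.21 over members and -0.01 over all genes tested.

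**Figure D1:**
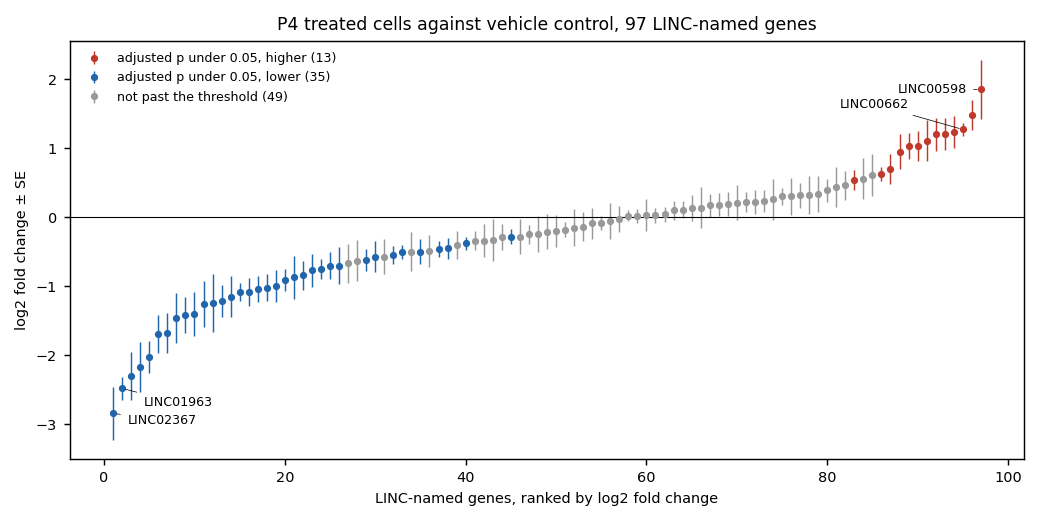
Log2 fold change (y axis, bars are the SE) of each of the 97 LINC-named genes in P4 treated cells against vehicle control (n = 3 each), ranked along the x axis. The 35 genes that fell reach -2.84 and the 13 that rose reach 1.85, and 49 did not pass the threshold.

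Falls outnumbered rises in other noncoding classes too. Of the called genes, 72.9% of the members, 76.0% of antisense-named genes, 76.5% of other long noncoding genes and 76.9% of microRNA host genes fell, against 47.8% of protein-coding genes. SNHG genes, which host small nucleolar RNAs, fell in 54.5% of 11 calls. Called changes beyond 1 log2 unit were not particular to the 28 members either. They were found in 16 of 53 tested LINC-named genes below the count limit, 291 of 1228 other long noncoding genes and 49 of 260 antisense-named genes. In microRNA host genes there were 5 of 23, in SNHG genes 1 of 20 and in protein-coding genes 1444 of 12852. No test of these differences was made. The count minimum itself selects on level: 11 members had a mean count of 20 or more in P4 treated cells but not in vehicle control, 10 the reverse, 69 in both groups and 7 in neither.

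**Figure D2:**
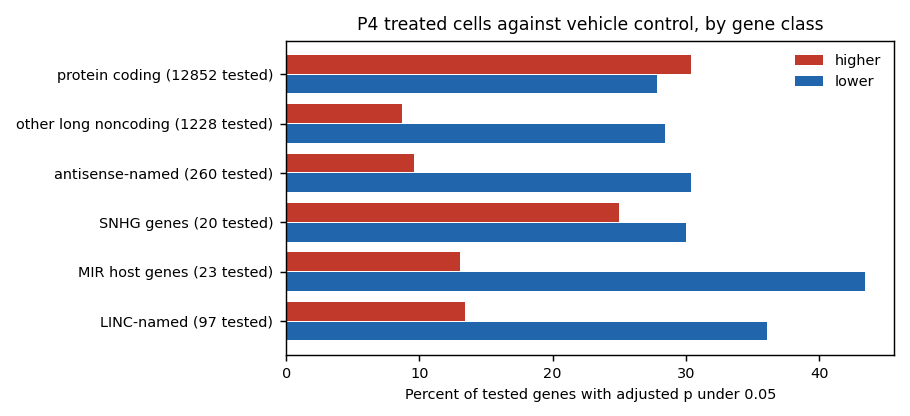
Percent of the tested genes of each class (x axis) that were higher (red) or lower (blue) in P4 treated cells than in vehicle control at an adjusted p under 0.05. Among LINC-named genes 13.4% rose and 36.1% fell, whereas among protein-coding genes 30.4% rose and 27.8% fell.

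LINC01963 fell the most among abundant members. This lincRNA gene lies on chromosome 2 (chr2:216217045-216220192, plus strand, GRCh38), 10742 bases beyond the body of XRCC5, which encodes the Ku80 subunit of DNA end joining. Its level was 25.6, 30.5 and 30.6 CPM in the vehicle control cultures and 7.2, 4.29 and 4.57 CPM in the P4 treated cultures, so the highest P4 treated culture was far below the lowest vehicle control. The log2 fold change was -2.48 ± 0.17 (SE, adjusted p = 2.2e-07). Control cells had 28.3 ± 2.73 CPM and Nap only cells 29.7 ± 1.33 CPM, close to the vehicle control. XRCC5 itself fell by 0.42 on the log2 scale (SE 0.06, adjusted p = 6.1e-05).

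LINC00662 had the most certain rise. It lies on chromosome 19 (chr19:27684580-27793940, minus strand) with no protein-coding gene within 1411381 bases, and is a lincRNA much studied in carcinomas. The vehicle control cultures had 46.5, 53.2 and 52.3 CPM and the P4 treated cultures 128, 132 and 113 CPM, without overlap. The log2 fold change was 1.27 ± 0.09 (SE, adjusted p = 2.2e-07). It held the second highest mean count of the members, 909, and 2 other annotated genes share some of its exon bases. The other members with a mean count of 100 or more that rose, LINC00472 and LINC00888, had log2 fold changes of 0.63 and 0.54.

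The promoters of 4 members are shown as single examples, chosen after their values were seen: a strong rise (LINC00662), a rise with repeated receptor half-sites (LINC01518), the steepest fall (LINC02367) and a fall beside a partner gene that rose (LINC00205). Each is the RefSeq sequence of 300 bases (GRCh38.p14), 250 before to 50 after the start, which lies within 36 bases of the GENCODE 29 start. Capitals mark TGTTCT or AGAACA, the half-site shared by the progesterone and glucocorticoid receptors. The LINC00662 window is chr19:27793891-27794190 on the minus strand, LINC01518 is chr10:42691710-42692009 on the minus strand, LINC02367 is chr12:9367214-9367513 on the plus strand and LINC00205 is chr21:45287802-45288101 on the plus strand.
LINC00662: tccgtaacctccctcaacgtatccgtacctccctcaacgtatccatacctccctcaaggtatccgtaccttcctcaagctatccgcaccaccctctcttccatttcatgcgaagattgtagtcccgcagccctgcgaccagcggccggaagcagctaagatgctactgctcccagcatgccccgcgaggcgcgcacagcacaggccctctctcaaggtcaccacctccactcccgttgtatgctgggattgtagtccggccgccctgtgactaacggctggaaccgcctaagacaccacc
LINC01518: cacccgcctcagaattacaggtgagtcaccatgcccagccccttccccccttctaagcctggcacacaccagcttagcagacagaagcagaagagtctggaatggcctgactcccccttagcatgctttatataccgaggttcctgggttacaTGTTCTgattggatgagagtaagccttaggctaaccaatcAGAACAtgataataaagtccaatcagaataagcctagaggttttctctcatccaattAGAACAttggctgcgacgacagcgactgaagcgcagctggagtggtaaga
LINC02367: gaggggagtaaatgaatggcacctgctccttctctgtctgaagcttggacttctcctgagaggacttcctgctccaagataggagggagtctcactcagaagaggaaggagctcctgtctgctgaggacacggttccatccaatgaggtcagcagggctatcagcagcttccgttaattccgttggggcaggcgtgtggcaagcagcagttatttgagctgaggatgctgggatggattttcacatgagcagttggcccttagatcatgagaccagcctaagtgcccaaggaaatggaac
LINC00205: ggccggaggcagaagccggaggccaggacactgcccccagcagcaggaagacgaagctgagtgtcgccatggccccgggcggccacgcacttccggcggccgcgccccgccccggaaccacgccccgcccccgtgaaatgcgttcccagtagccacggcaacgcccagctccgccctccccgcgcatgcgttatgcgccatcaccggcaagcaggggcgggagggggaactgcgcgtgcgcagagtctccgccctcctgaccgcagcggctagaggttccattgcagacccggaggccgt

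The LINC01518 window held 3 half-sites, starting 97 and 57 bases before the start and at the start itself, and the other windows shown held none. A RefSeq promoter was found for 69 members, and for 54 of them its start was within 500 bases of the GENCODE start. Of these 54, 3 held a half-site on either strand (5.56%), against 14.8% of all 35116 RefSeq promoters. The palindromic receptor element, made of both half-sites with 3 bases between them, was in none of the 54 and in 1 promoter of the whole RefSeq set. The cAMP response element TGACGTCA was in 2 of the 54 (3.7%) against 1.85% of all promoters, and TGATGNAA, the core bound by ATF4 and CHOP (TTNCATCA on the other strand), was in 3 (5.56%) against 3.62% of all promoters. Of the 54, the 16 whose genes fell and the 8 whose genes rose each had a median GC content of 56.65%. The 30 that did not pass had 66.0%, and all RefSeq promoters had 58.7%. The median number of CG dinucleotides was 9.5 in the windows of genes that fell, 15.5 in those of genes that rose and 23.5 in those that did not pass. Of the windows shown, LINC00205 contained 34, LINC00662 20, LINC01518 6 and LINC02367 4. The motifs too were chosen after the values were seen, and a match of letters does not show a binding site.

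LINC02367, on chromosome 12 (chr12:9367464-9397617, plus strand), had the steepest fall but few reads. The vehicle control cultures had 9, 30 and 20 reads (1.72, 2.21 and 1.61 CPM) and the P4 treated cultures 2, 3 and 4 reads (0.192, 0.258 and 0.305 CPM). LINC02367 thus met the count limit through libraries in which it is high, and its choice as a member is not independent of its fall. The fitted log2 fold change was -2.84 ± 0.38 (SE, adjusted p = 5.8e-05), and the ratio of summed counts, scaled by library size, put the vehicle control 7.38 times above P4 treated cells, with an exact 95% interval from 3.64 to 16.9 that covers counting error only. Its nearest protein-coding gene, PZP, which encodes a protease inhibitor known from pregnancy plasma, rose from 0.791 ± 0.0831 to 2.61 ± 0.766 CPM (SD, n = 3; log2 fold change 1.7 ± 0.32 SE, adjusted p = 0.00073). The genes lie 159094 bases apart.

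LINC02223 and LINC00578 also fell to a few reads. These lie below the count limit, so the choice of both as members is not independent of their falls either. LINC02223, on chromosome 5, had 2.68, 1.84 and 2.49 CPM in vehicle control and 0.576, 0.515 and 0.305 CPM in P4 treated cells (log2 fold change -2.3 ± 0.35 SE, adjusted p = 0.00014). LINC00578, on chromosome 3, had 1.53, 1.69 and 1.77 CPM in vehicle control and 0.48, 0.429 and 0.229 CPM in P4 treated cells (-2.17 ± 0.36 SE, adjusted p = 0.00031). Neither pair of groups overlapped, and LINC00578 had 8, 23 and 22 reads against 5, 5 and 3. Control cells had 2.49 ± 0.039 CPM of LINC00578, more than the vehicle control, but that difference did not pass the test (log2 fold change -0.56 ± 0.24 SE, adjusted p = 0.099).

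LINC01127 lies on chromosome 2, 4677 bases from IL1R2, the decoy receptor for interleukin 1. Its level was 6.89, 8.1 and 7.96 CPM in vehicle control and 2.4, 1.2 and 2.13 CPM in P4 treated cells (log2 fold change -2.03 ± 0.23 SE, adjusted p = 1.3e-05). It was also 1 of the members raised by the vehicle itself, from 5.52 ± 1.05 CPM in control (log2 fold change 0.5 ± 0.17 SE, adjusted p = 0.04), so part of the distance to P4 treated cells was present between the reference groups. Against control the fall was -1.55. IL1R2 did not pass the test (-0.52 ± 0.24 SE, adjusted p = 0.087).

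LINC01270 lies on chromosome 20 with CEBPB, a transcription factor of stromal decidualization, as its nearest protein-coding gene 100031 bases away. It was at 3.25, 2.87 and 3.06 CPM in vehicle control and 0.576, 1.2 and 0.991 CPM in P4 treated cells (log2 fold change -1.69 ± 0.28 SE, adjusted p = 0.00029). CEBPB moved the other way, from 14.7 ± 1.84 to 57.1 ± 7.24 CPM (SD, n = 3; log2 fold change 1.98 ± 0.12 SE, adjusted p = 9.2e-08). LINC01270 shares exon bases with LINC01271.

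The other members with large falls were LINC01948 (log2 fold change -1.68), LINC00852 (-1.46), LINC01341 (-1.42) and LINC01091 (-1.4), all below 6 CPM in every vehicle control culture. LINC00852 lies opposite GHRL, the ghrelin gene, and shares exon bases with it, and LINC01341 shares some with KIF28P. The strand setting of the counting is not stated, so reads of overlapping genes cannot be assigned with certainty. LINC01341 also differed between vehicle control and control (2.88 ± 0.328 against 1.62 ± 0.317 CPM, adjusted p = 0.028), and its fall against control did not pass the test (-0.66, adjusted p = 0.07).

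**Figure D3:**
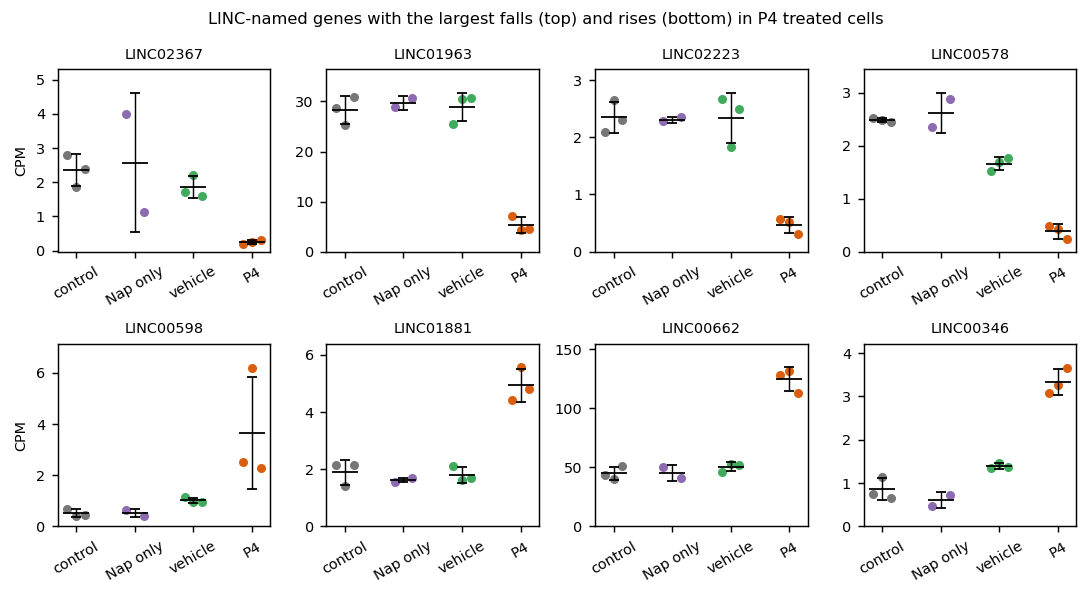
Level (CPM, y axis from 0) of 4 LINC-named genes with large falls and 4 with large rises, in control (n = 3), Nap only (n = 2), vehicle control (n = 3) and P4 treated (n = 3) cultures. Points are cultures and bars the mean ± SD. The genes were chosen among called members whose P4 treated and vehicle control cultures do not overlap, so that separation in each panel is by choice. For LINC00598, 1 P4 treated culture stands at 6.18 CPM.

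Among the genes that rose, LINC00598 had the largest fitted change and the largest spread. It spans chr13:40079106-40535807 on the minus strand and overlaps FOXO1, a transcription factor active in decidualizing endometrium, with shared exon bases. The vehicle control cultures had 1.15, 0.958 and 0.965 CPM and the P4 treated cultures 2.5, 6.18 and 2.29 CPM (log2 fold change 1.85 ± 0.43 SE, adjusted p = 0.003). Without the P4 treated culture at 6.18 CPM the log2 fold change was 1.25 (adjusted p = 0.0037). It also met the count limit only through libraries in which it is high: its mean count was 10.3 in vehicle control and 42.7 in P4 treated cells, and the mean of 20.7 over all libraries was 17.5 without that culture. FOXO1 itself had a log2 fold change of 0.19 ± 0.09 (SE, adjusted p = 0.087).

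LINC01881, a transcribed pseudogene on chromosome 2, rose from 2.11, 1.62 and 1.69 CPM to 4.42, 5.58 and 4.8 CPM (log2 fold change 1.48 ± 0.22 SE, adjusted p = 0.00011), but it shares exon bases with SEPT14P2. LINC00346, now named PRECSIT and known as a p53-regulated RNA of squamous carcinoma cells, rose from 1.34, 1.47 and 1.37 CPM to 3.07, 3.26 and 3.66 CPM (log2 fold change 1.23 ± 0.23 SE, adjusted p = 0.00072). Its control cultures had 0.753, 1.14 and 0.668 CPM, below every vehicle control culture, but that difference did not pass the test (0.68 ± 0.32 SE, adjusted p = 0.13). Like LINC00598, LINC00346 met the count limit through libraries in which it is high. The mean count of LINC00346 was 22.5 over all libraries, 14.7 in vehicle control and 39.3 in P4 treated cells. Its choice as a member is thus not independent of its rise. ANKRD10, the nearest protein-coding gene of LINC00346, fell by 0.35 on the log2 scale.

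LINC01518 rose from 3.83, 4.71 and 5.23 CPM to 7.88, 12.1 and 9.22 CPM (log2 fold change 1.03 ± 0.19 SE, adjusted p = 0.00066). It is short, so it ranked high in RPKM. LINC00571 (1.21), LINC01579 (1.2), LINC01003 (1.11), LINC01012 (1.03) and LINC00663 (0.95) rose by similar log2 amounts at low levels, between 1.89 and 5.47 CPM in P4 treated cultures. LINC01003 is the least certain of these, since without vehicle control replicate 2 its adjusted p was 0.055.

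Among the abundant members with smaller changes, LINC00472 was at 37.7, 31.5 and 28.1 CPM in vehicle control and 50.6, 49.2 and 49.5 CPM in P4 treated cells (log2 fold change 0.63 ± 0.1 SE, adjusted p = 0.0002). Its nearest protein-coding gene OGFRL1 rose by a like amount, 0.62 ± 0.07 (SE, adjusted p = 1.2e-05). LINC00963, the member with the most reads, had 83.6, 79 and 79.6 CPM in vehicle control and 69, 44.4 and 54 CPM in P4 treated cells (-0.55 ± 0.13 SE, adjusted p = 0.0034). LINC00641 had 63.7, 54.6 and 56.5 CPM against 46.3, 40.3 and 36.2 CPM (-0.51 ± 0.1 SE, adjusted p = 0.00097). In none of these did the groups overlap.

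By read depth, 19 of 33 members with a mean count of 100 or more passed the test, 3 higher and 16 lower, as did 6 of 22 between 50 and 100 and 23 of 42 below 50, where 9 rose and 14 fell. The shares of the highest and lowest bins, 57.6% and 54.8%, lie near the 56.1% of all genes at the same count minimum, whereas the middle bin had 27.3%. The 56.1% was not matched in depth to any bin, and no difference between bins was tested. The 3 LINC-named genes on each side of the count limit were set side by side. Just inside lay LINC01560 (log2 fold change -0.33), LINC00598 (mean count 20.7, log2 fold change 1.85) and LINC01399 (21.6, -0.87). Just outside lay LINC00565 (mean count 19.6, log2 fold change -3.74), LINC01011 (19.6, 0.12) and LINC01772 (19.1, -0.03). The limit thus left out a LINC-named gene with a steeper fitted fall than any member.

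A list of 23 LINC genes much studied in cancer and reproduction was set beside these results. Of these, 10 are members, 6 were below the count limit and 7 were not found under that symbol. LINC00261, known from endodermal and endometrial tissue, had no read in any library, and LINC01016, an oestrogen-regulated RNA, had a mean count of 7.2. In P4 treated cells against vehicle control, 1 of the 10 rose (LINC00662) and 4 fell, namely LINC00511, LINC00963, LINC00641 and LINC00958. These 5 of 10 are near the background of 53.0%. LINC00511, an RNA often reported as raised in carcinomas, had 33.5, 25.8 and 25.6 CPM in vehicle control and 13.6, 11.4 and 14.4 CPM in P4 treated cells (-1.09 ± 0.13 SE, adjusted p = 2.3e-05), and its level against control was also lower (-0.7, adjusted p = 0.0002). LINC00958 had 23.5, 24.8 and 23.7 CPM against 18.5, 17.9 and 19.5 CPM (-0.38 ± 0.09 SE, adjusted p = 0.0046). LINC00665, LINC00467, LINC00339, LINC01234 and LINC00941 did not pass. LINC00339, which lies beside CDC42 in a region linked to endometriosis risk, was at 5.64 ± 0.35 CPM in vehicle control and 6.77 ± 0.821 CPM in P4 treated cells, whereas CDC42, which encodes a small GTPase, fell by 0.41 (SE 0.06, adjusted p = 0.00014).

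Position relative to protein-coding genes was then examined. Of the members, 69 lay apart from protein-coding genes, 10 were head to head with a gene on the opposite strand within 5 kb (divergent), 10 overlapped one on the opposite strand and 8 one on the same strand. The test was passed by 40 of the 69 members that lay apart (12 higher, 28 lower), by 3 of the 10 divergent members, by 3 of the 10 that overlapped on the opposite strand and by 2 of the 8 that overlapped on the same strand. The share of 58.0% among members that lay apart is near the 56.1% of all genes at the same count minimum, and the other classes hold few members. The 6 called members of the divergent and opposite-strand classes all fell. Exon bases were shared with another gene by 40 members, of which 21 passed, against 27 of the 57 that shared none. Of 38 neighbours tested beside called members, 25 passed, 12 in the direction of the member and 13 in the opposite direction. That is 65.8% of them, near the 64.0% of the neighbours of all members and the 58.3% of all protein-coding genes that passed. Across the 75 members with a tested neighbour, Pearson's r of the 2 log2 fold changes was -0.0575 and Spearman's rho 0.0355, given as a description since both values of a pair come from the same libraries.

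LINC00205 and POFUT2, whose starts lie 152 bases apart on chromosome 21, moved in opposite directions. LINC00205 had 42.7, 35.7 and 39.1 CPM in vehicle control and 26.4, 13.8 and 17.2 CPM in P4 treated cells (log2 fold change -1.04 ± 0.19 SE, adjusted p = 0.00099). POFUT2, which adds O-fucose to secreted proteins, was at 22.2 ± 2.22 CPM in vehicle control and 40.7 ± 7.77 CPM in P4 treated cells (0.84 ± 0.13 SE, adjusted p = 0.0002). LINC01089 and SETD1B, 274 bases apart, both fell (-0.62 and -0.61). LINC00857 fell by 1.24 on the log2 scale while ANXA11 did not pass (-0.09, adjusted p = 0.28), and LINC00857 had only 2, 8 and 12 reads in P4 treated cells. LINC00235 did not pass (0.26 ± 0.3 SE, adjusted p = 0.5) beside CAPN15, which fell by 1.05.

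**Figure D4:**
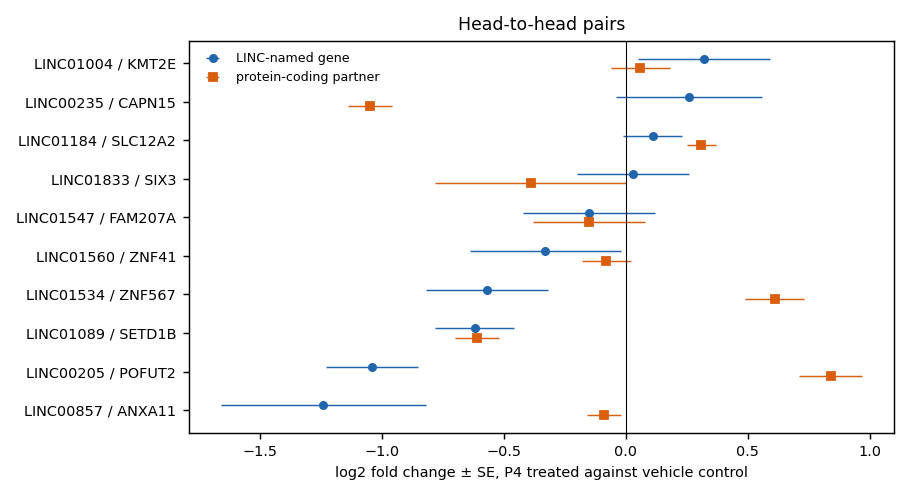
Log2 fold change (x axis, bars are the SE) in P4 treated cells against vehicle control for the 10 LINC-named genes that lie head to head with a protein-coding gene (circles) and for that partner (squares). LINC00205 and POFUT2 lie on opposite sides of 0, and LINC01089 and SETD1B both lie near -0.6.

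The other 2 references for P4 share the treated cultures with the main comparison, so they are set side by side with it and are not independent of it. Against Nap only cells, 50 of 97 members passed (51.5%, background 49.7%), 14 higher and 36 lower, where 24.8% of all genes rose and 24.9% fell. Without either of the Nap only cultures 33 members passed, and the share of all genes fell to 31.5%. Against control, 63 passed (64.9%, background 54.8%), 23 higher and 40 lower, where 26.8% of all genes rose and 28.0% fell. LINC01963 had log2 fold changes of -2.51 and -2.44 in these comparisons, LINC00662 of 1.42 and 1.44, and LINC02367 of -3.27 and -3.18, near their values against vehicle control. LINC00346 differed more from Nap only (2.4) and control (1.91) than from vehicle control (1.23), as did LINC00598 (2.79, 2.75 and 1.85).

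The vehicle control was compared with control to see what the vehicle did by itself. Of 97 members tested, 17 passed (17.5%, background 22.6%), 12 higher and 5 lower, whereas 11.9% of all genes were called higher and 10.7% lower. Without any 1 of the vehicle control cultures, 10 or 11 members passed, and the share of all genes that passed fell as well, to between 11.1% and 15.1%. LINC00342 on chromosome 2 had the smallest adjusted p. Its control cultures had 17.2, 15.6 and 13.2 CPM and its vehicle control cultures 27.8, 25.1 and 29.3 CPM (log2 fold change 0.83 ± 0.11 SE, adjusted p = 2.4e-05). The P4 treated cultures had 18.1, 9.1 and 9.07 CPM, lower than vehicle control by 1.21 on the log2 scale (adjusted p = 0.0013), but not distinguishable from control (-0.39, adjusted p = 0.19). Nap only cells had 19.5 and 15.6 CPM. The vehicle control cultures were thus the only labelled ones above 20 CPM.

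LINC01278, an X-linked gene, rose from 11.5, 12.8 and 11.2 CPM in control to 17.6, 21.6 and 22 CPM in vehicle control (log2 fold change 0.81 ± 0.12 SE, adjusted p = 4.8e-05). P4 treated cells had 15, 20.1 and 14.6 CPM, which overlapped the vehicle control. LINC01176 (1.71 ± 0.354 to 3.93 ± 0.601 CPM), LINC00265 (2.02 ± 0.615 to 4.16 ± 0.452 CPM) and LINC02327 (5.08 ± 0.388 to 8.35 ± 2.06 CPM) were also higher in vehicle control, with log2 fold changes of 1.16, 1.01 and 0.66. Without vehicle control replicate 1, LINC02327 no longer passed (adjusted p = 0.061). None of these 4 passed the test between P4 treated cells and vehicle control.

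The 5 members that fell in vehicle control were LINC00909, LINC00910, LINC00467, LINC01481 and LINC00235. LINC00909 lies opposite ZNF407 with its start 638 bases away, and had 9.47, 11.3 and 12.7 CPM in control and 7.08, 6.19 and 5.95 CPM in vehicle control (-0.82 ± 0.15 SE, adjusted p = 0.00077). LINC00467 had 15.3, 21.8 and 15.7 CPM in control and 10.7, 11.1 and 12 CPM in vehicle control (-0.64 ± 0.14 SE, adjusted p = 0.0025). LINC01481, now named PRANCR and known from keratinocyte growth and differentiation, was at 6.43 ± 1.34 CPM in control and 3.35 ± 0.584 CPM in vehicle control (-0.89 ± 0.2 SE, adjusted p = 0.0037). LINC00910 was the only one of the 5 to pass also between P4 treated cells and vehicle control (-0.57 ± 0.22 SE, adjusted p = 0.043). LINC00235 had a log2 fold change of -1.05 ± 0.27 (SE, adjusted p = 0.0072) and lost its call without vehicle control replicate 2 (adjusted p = 0.074).

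**Figure D5:**
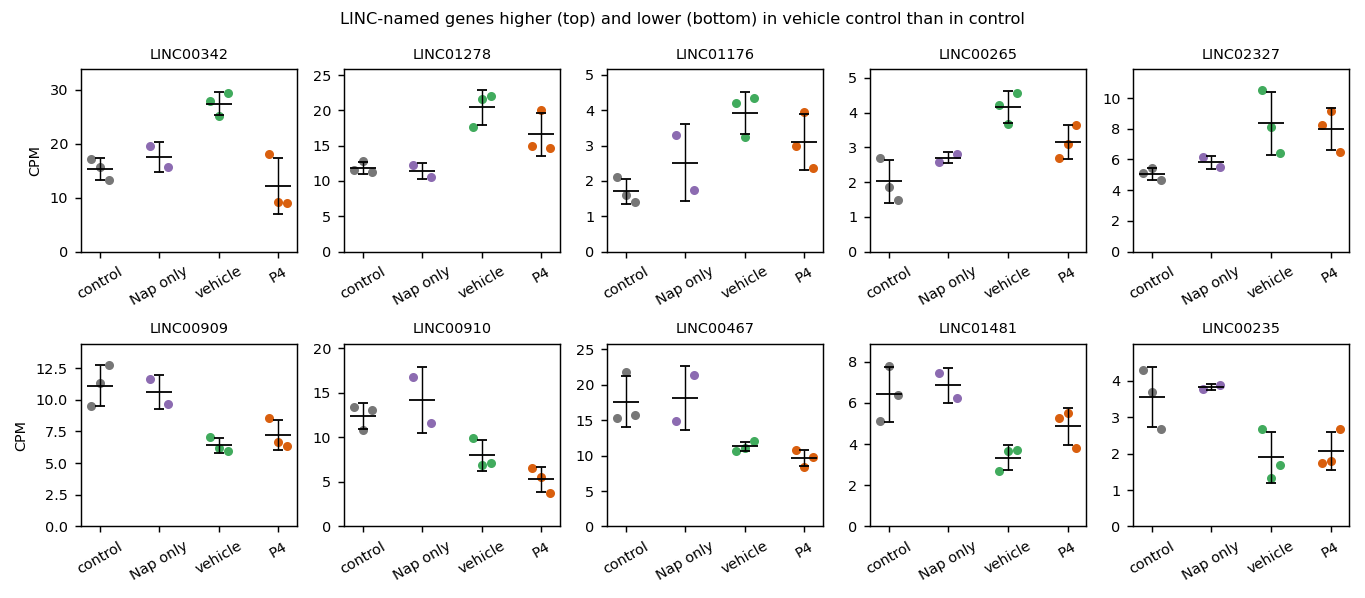
Level (CPM, y axis from 0) of 5 LINC-named genes higher and 5 lower in vehicle control than in control, shown for control (n = 3), Nap only (n = 2), vehicle control (n = 3) and P4 treated (n = 3) cultures. Points are cultures and bars the mean ± SD. LINC00342 is high in the vehicle control alone, while for LINC00909 and LINC00235 the vehicle control and P4 treated cultures overlap.

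Nap only cells could not be told apart from control in the members. Of 96 members tested with edgeR, 0 passed (background 0.0%), 2 had an unadjusted p under 0.05, and DESeq2 called 0. The log2 fold changes ran from -0.5 to 0.63. With 2 Nap only cultures, smaller differences were not detectable, and over all 17166 genes tested 217 (1.26%) had an unadjusted p under 0.05.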

How the data were processed

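Raw read counts per gene were deposited by the authors, who trimmed reads with Cutadapt, filtered them by quality, kept unique Subread alignments and counted with featureCounts against GENCODE 31. Versions and the strand setting are not given in the sources used here. The libraries were stranded total RNA, sequenced as single-end reads.

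Labels gave the sample of every column, and 0 columns were left unused. Genes were named from GENCODE 29 (GRCh38), of which 25 members have the same annotation version as the table. Counts were fitted with edgeR 4.0.16 in R 4.3.3 (TMM, filterByExpr with minimum count 10, robust quasi-likelihood), each fit holding only the groups compared, and adjusted over all genes tested. SE is the log2 fold change divided by the square root of F, and 95% intervals of fold changes assume a normal error of that size. Intervals and p-values cover the spread between these cultures. Replicates differed beyond sampling noise in every group. Counts were also simulated for P4 treated against vehicle control (16540 genes, 200 changed, dispersion 0.02). There 77 of 100 genes changed by 1 log2 unit and 96 of 100 changed by 2 were recovered, with 9 false calls. In the data the common dispersion was 0.00635 and 53.0% of genes passed, so these rates do not carry over to the members. Members of 20 or more mean counts, gene lists and motifs were chosen with earlier results of these data known. The text names up to 10 called members with the largest change in each direction between P4 treated and vehicle control cultures that did not overlap, the 6 of highest RPKM, up to 5 in each direction for the vehicle, the 3 on each side of the count limit, the listed much-studied genes and neighbouring protein-coding genes, and the divergent pairs, chosen after their values were seen. Promoters came from RefSeq (GRCh38.p14). Alternatives were RLE and upper-quartile scaling, DESeq2 1.42.0, no filter, 10 counts in every sample, a fit of all labelled groups, a replicate block, leaving out mitochondrial genome genes and leaving out each culture.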

Additional observations from a re-analysis of the deposited data

Results flagged for a closer look

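In the 6 libraries whose labels contradict their column names, 3 members lay above every labelled culture in all 3 libraries of a column name. They were picked out of all 97 members. The share of all genes that lay so, and the members that lay below, are not given here, so the number is not a result about the members. LINC01399 had 2.48, 2.73 and 2.47 CPM (median 2.48) in the libraries whose columns are named PSAT1, against at most 2.21 CPM in any labelled culture. LINC01694 had 20.8, 21.2 and 19.9 CPM (median 20.8) in the same libraries, against at most 19.8 CPM. LINC00888 had 10.9, 10.9 and 10.2 CPM (median 10.9) in the libraries whose columns are named PSAT1 with P4, against at most 9.27 CPM. These differences are small, no condition was assigned to these libraries, and no difference was tested.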

How the results depend on the processing

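In P4 treated cells against vehicle control, the number of members called was 32 when 10 counts were required in every sample (76 members tested), 39 with DESeq2 and 46 to 51 under the other settings that kept all cultures, and 39 to 51 as cultures were removed in turn. The share of all genes was 56.7% with 10 counts in every sample, 21.9% with DESeq2 and 27.4% without a filter. It was 50.4% to 54.0% under the remaining settings that kept all cultures, and 42.1% to 58.1% as cultures were removed. The shares for DESeq2 are over all genes with a p-value, 32920 here, whether or not DESeq2 gave them an adjusted p. The fit without a filter tested 32921 genes, against 16540 in the main fit. How the members compared with the background thus depended on the genes tested. Against control 48 to 66 members were called over all settings, where 23.8% to 56.6% of all genes passed. Against Nap only the number fell from 50 to 33 without either Nap only culture, and lay between 33 and 58 as each culture was removed. The share of all genes lay between 31.5% and 57.7% in these fits. In vehicle control against control the number fell from 17 to 11 with DESeq2, and lay between 10 and 16 as each culture was removed: 10 without vehicle control replicate 1 and 11 without replicate 2 or 3. The share of all genes was 7.68% with DESeq2 and 11.1% to 23.4% as each culture was removed. The all-gene median log2 fold change moved from -0.013 to -0.101 under upper-quartile scaling.

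With the replicate number as a block the counts were 50, 40, 62, 21 and 0 members for P4 treated against vehicle control, Nap only and control, vehicle control against control and Nap only against control. In the same order, 54.0%, 39.1%, 52.7%, 26.2% and 0.245% of all genes passed. Same-numbered cultures were correlated between -0.0916 and 0.0739 in the comparisons without Nap only against control, so the numbers do not show a pairing, and not every culture correlated best with its own number. In Nap only against control the correlations were 0.282 and 0.337, with 2 pairs only. The block also brought LINC01234 past the threshold (adjusted p = 0.035).

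Of the recomputed P4 against vehicle values of named members, 458 kept their direction and their side of the threshold, 7 lost the call, 4 gained it and 6 turned. LINC01399 lost its call in 6 settings, the highest adjusted p being 0.2 with DESeq2. The direction of 2 members near 0 turned: LINC00960 came to -0.07 with upper-quartile scaling and to -0.03, -0.01 and -0.02 without vehicle control replicate 2, P4 treated replicate 1 or P4 treated replicate 2 (0.11 at most with a culture removed), and LINC01578 to -0.07 with upper-quartile scaling and -0.03 without vehicle control replicate 3 (0.07 at most with a culture removed). No value of these was called. The cause of these changes was not tested. Members with under 50 counts rest on few reads, and at the depth of vehicle control replicate 1 a count of 3 corresponds to 0.574 CPM, above the P4 treated level of LINC02367 and LINC00578.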

Other observations

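The 6 libraries without a condition had titles that contradict the names of their columns, and their values are given by column name alone. LINC00662 had 45.4, 45.8 and 46.4 CPM in the libraries whose columns are named PSAT1 and 121, 112 and 137 CPM in those named PSAT1 with P4. LINC01963 had 30.8, 25.3 and 30.1 CPM in the former and 5.4, 4.51 and 4.42 CPM in the latter. LINC02367 had 2.87, 2.6 and 3.24 CPM in the former and 0.0982, 0 and 0.21 CPM (1, 0 and 2 reads) in the latter. For these 3 genes the values fell into 2 separate clusters of 3 libraries. The libraries of each cluster share a column name and also a title, so the clusters alone do not show which of the labels is right. For LINC00662 and LINC01963, the libraries with columns named PSAT1 with P4 lay near the P4 treated cultures described above. Those with columns named PSAT1 lay near the vehicle control, and LINC02367 was split the same way. The split thus follows the column names if P4 acts in these libraries as in the labelled ones, which was not tested.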
